A study of Mus musculus with 6 samples.

Results

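The miR-199 and miR-214 family was measured in whole aortas of 6 mice by quantitative real-time PCR arrays. Its members were taken by assay name, without names that carry an asterisk, which gave 4 of the 596 mouse miRNA assays: mmu-miR-199a-3p, mmu-miR-199a-5p and mmu-miR-214 on array card A and mmu-miR-199b on card B. The 3 EC-Dicerflox mice had the genotype VE-Cadherin-CreERT2Dicer1flox/flox/Apoe-/- and the 3 EC-DicerWT littermates the genotype VE-Cadherin-CreERT2Dicer1WT/WT/Apoe-/-. All 6 were females that lacked Apoe, carried the Cre transgene, received tamoxifen (2 mg per 20 g body weight) for 5 days, and were later kept for 12 weeks on high-fat chow (crude fat 21%, cholesterol 0.15%), which began at an age of 6-8 weeks. The VE-cadherin promoter directs the Cre recombinase to endothelium, so the deletion is aimed at endothelial cells and not at the smooth muscle cells, fibroblasts and blood-derived cells of the aorta. Dicer mRNA is not measured by these assays, and its loss was not checked in these values.

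The miR-199 and miR-214 genes are best known from mesenchyme. Mir199a-2 and Mir214 are cut from the same long non-coding transcript, Dnm3os, which the transcription factor Twist1 drives in embryonic mesenchyme, fibroblasts and tumour stroma. Known targets are mTOR and Met for miR-199a-3p, caveolin-1 and HIF-1α for miR-199a-5p, and Ezh2 for miR-214. Dicer separates the 5′ and 3′ arm of each hairpin, so arms of a hairpin are made in equal number, and what accumulates depends on which arm is kept.

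The mature sequences are shown because they set what each assay can tell apart. They are from RefSeq (GRCm38.p6), written 5′ to 3′, and the capitals mark the seed, bases 2 to 8, through which a miRNA finds its targets.
mmu-miR-199a-3p: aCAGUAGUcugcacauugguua
mmu-miR-199b-3p: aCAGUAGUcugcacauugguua
mmu-miR-199a-5p: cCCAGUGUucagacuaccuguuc
mmu-miR-214-3p: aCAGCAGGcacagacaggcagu
mmu-miR-214-5p: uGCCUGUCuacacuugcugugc
mmu-miR-761: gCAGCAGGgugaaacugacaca
The table gives miR-214 and miR-199b without an arm. In older naming, miR-214 without an arm is the 3p strand, and which strand the assay reads was not checked here. The arms of miR-199a have no seed in common with each other or with miR-214.

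The hairpins below show where these arms lie, with the arms listed in RefSeq in capitals. They are shown because 3 loci encode 1 and the same 3p strand.
Mir199a-2 (chr1:162217814-162217923, plus strand): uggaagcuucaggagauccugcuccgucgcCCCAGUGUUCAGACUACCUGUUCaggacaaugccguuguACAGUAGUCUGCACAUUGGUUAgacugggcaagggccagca
Mir199a-1 (chr9:21496495-21496564, minus strand): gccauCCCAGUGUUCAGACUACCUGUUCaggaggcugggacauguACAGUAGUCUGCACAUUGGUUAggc
Mir199b (chr2:32318460-32318569, plus strand): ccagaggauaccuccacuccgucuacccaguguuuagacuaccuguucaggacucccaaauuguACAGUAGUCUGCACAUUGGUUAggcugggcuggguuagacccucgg
Mir214 (chr1:162223368-162223477, plus strand): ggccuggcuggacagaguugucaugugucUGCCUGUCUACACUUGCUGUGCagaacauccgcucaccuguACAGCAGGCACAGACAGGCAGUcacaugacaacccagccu
Mir199a-2 and Mir214 lie 5444 bases apart inside the long non-coding RNA gene Dnm3os (chr1:162217623-162225550), within the bounds of the dynamin gene Dnm3. Mir199a-1 lies within Dnm2 and Mir199b within Dnm1, which are also dynamin genes. The miR-199a-3p assay therefore cannot separate the products of 3 loci, the miR-199a-5p assay reads the product of 2 loci, and miR-214 has 1 locus.

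The deposited values are threshold cycles (Ct), counted until an assay's fluorescence passes a set level, so a lower Ct means more RNA. All 4 assays were detected in the 6 aortas, far below the limit of Ct 40 that stands for no detection. The mean Ct over the 6 samples was 19.6 for miR-199a-3p, 20.4 for miR-214, 23.0 for miR-199a-5p and 25.1 for miR-199b. Among the 249 card A assays detected in all samples these means had rank 29 for miR-199a-3p, 43 for miR-214 and 86 for miR-199a-5p from the lowest Ct. On card B miR-199b had rank 30 among 145 such assays. Efficiencies of the assays are not known, so the order of the assays is a description of Ct values and not of molecule numbers. The labels give the tissue as aorta, and the smooth muscle miRNAs miR-145 and miR-143 had mean Ct values of 14.7 and 16.2. Which aortic cells the miR-199 and miR-214 signal came from was not measured.

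Levels were expressed on the log2 scale as the mean Ct of 5 control small RNAs (snoRNA135, snoRNA202, U6, U87 and Y1) minus the Ct of the assay, so that a higher level means more RNA. The level of miR-199a-3p was 0.18, -0.11 and 0.56 in EC-Dicerflox replicates 1 to 3 and 0.06, -0.06 and 0.39 in EC-DicerWT replicates 1 to 3. In both groups the third replicate was highest, and the groups overlapped. The level of miR-214 was -0.37, -0.62 and -0.93 in EC-Dicerflox and -0.41, -0.76 and -0.73 in EC-DicerWT replicates 1 to 3. Here replicate 1 was highest in both groups, the values again overlapped, and the lowest value was that of EC-Dicerflox replicate 3.

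The level of miR-199b was -5.19, -5.18 and -5.42 in EC-Dicerflox and -5.28, -5.50 and -5.40 in EC-DicerWT replicates 1 to 3. All 6 values lay within 0.32 log2 units, the narrowest range among the 4 members. The SD within groups was 0.12 for miR-199b, and 95.7% of the 46 assays with a mean Ct within 1 cycle of it had a larger SD. MiR-199a-5p had the widest range of the members. Its level was -3.90, -3.16 and -3.26 in EC-Dicerflox and -3.35, -2.01 and -3.21 in EC-DicerWT replicates 1 to 3. EC-DicerWT replicate 2 stood 1.37 log2 units above the mean of the other 5 samples, which lay between -3.90 and -3.16.

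**Figure D1:**
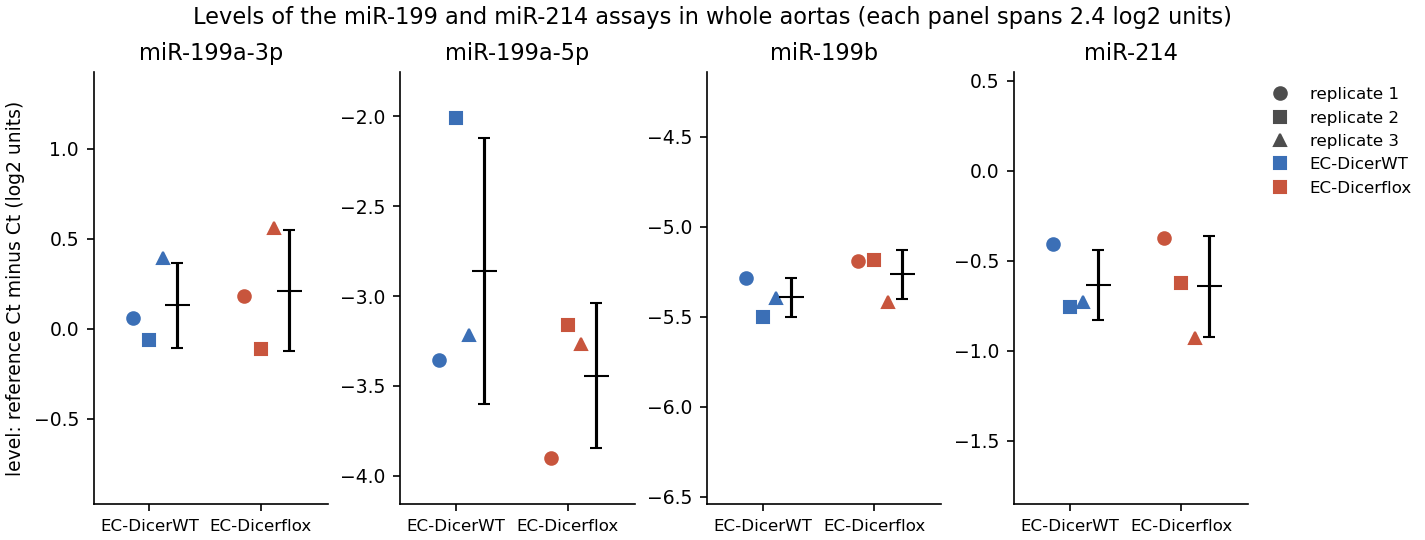
Level of each member (log2 units, reference Ct minus Ct) in every aorta, with the mean and SD of 3 mice beside the points; blue is EC-DicerWT, red is EC-Dicerflox, and the marker shape gives the replicate number. The groups overlap in every panel, and EC-DicerWT replicate 2 stands apart for miR-199a-5p at -2.01.

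The comparison of the groups asks whether loss of Dicer in the endothelium is seen in these miRNAs in the whole aortic wall. Of the 4 members, 0 had an adjusted or unadjusted limma P under 0.05, against 4.78% of the 439 tested assays at the unadjusted threshold. Likewise 0 of the 4 had groups that did not overlap, against 9.79% of the tested assays. The smallest adjusted limma P among all tested assays was 0.62, so the adjusted threshold passed 0 of them, with 21 at the unadjusted threshold. A whole-tissue level cannot tell fewer cells of a type from less RNA per cell.

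MiR-199a-3p was 0.13 ± 0.23 in EC-DicerWT mice, against 0.21 ± 0.34 in EC-Dicerflox mice (both SD, n = 3). The difference was 0.08 ± 0.27 (SE). It puts the EC-Dicerflox level at 106% of the EC-DicerWT level, with a 95% interval from 65.3% to 171% (adjusted limma P of 0.99). MiR-214 was -0.63 ± 0.19 in EC-DicerWT mice, against -0.64 ± 0.28 in EC-Dicerflox mice (both SD, n = 3). Its difference was -0.01 ± 0.25 (SE). This puts the EC-Dicerflox level at 99.3% of the EC-DicerWT level, with an interval from 64.2% to 154% (adjusted limma P of 0.99). For both miRNAs the difference was smaller than the spread between mice, and the intervals leave room for changes in either direction.

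MiR-199b was -5.39 ± 0.11 in EC-DicerWT mice, against -5.27 ± 0.13 in EC-Dicerflox mice (both SD, n = 3). With a difference of 0.13 ± 0.20 (SE), the EC-Dicerflox level was 109% of the EC-DicerWT level. The interval ran from 76.8% to 155% (adjusted limma P of 0.99). MiR-199a-5p had the largest difference of the 4, at -0.58 ± 0.46 (SE), with a mean of -2.86 ± 0.74 in EC-DicerWT mice, against -3.44 ± 0.40 in EC-Dicerflox mice (both SD, n = 3). The EC-Dicerflox level was 66.8% of the EC-DicerWT level, with an interval from 29.8% to 149.7% (unadjusted limma P of 0.26, adjusted limma P of 0.99). Without EC-DicerWT replicate 2 the difference was -0.16. Of all tested assays, 29.8% had a larger absolute change than miR-199a-5p, and 96.8% had a larger one than miR-214. The median change was 0.04 for the 4 members and -0.10 for the 439 tested assays.

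**Figure D2:**
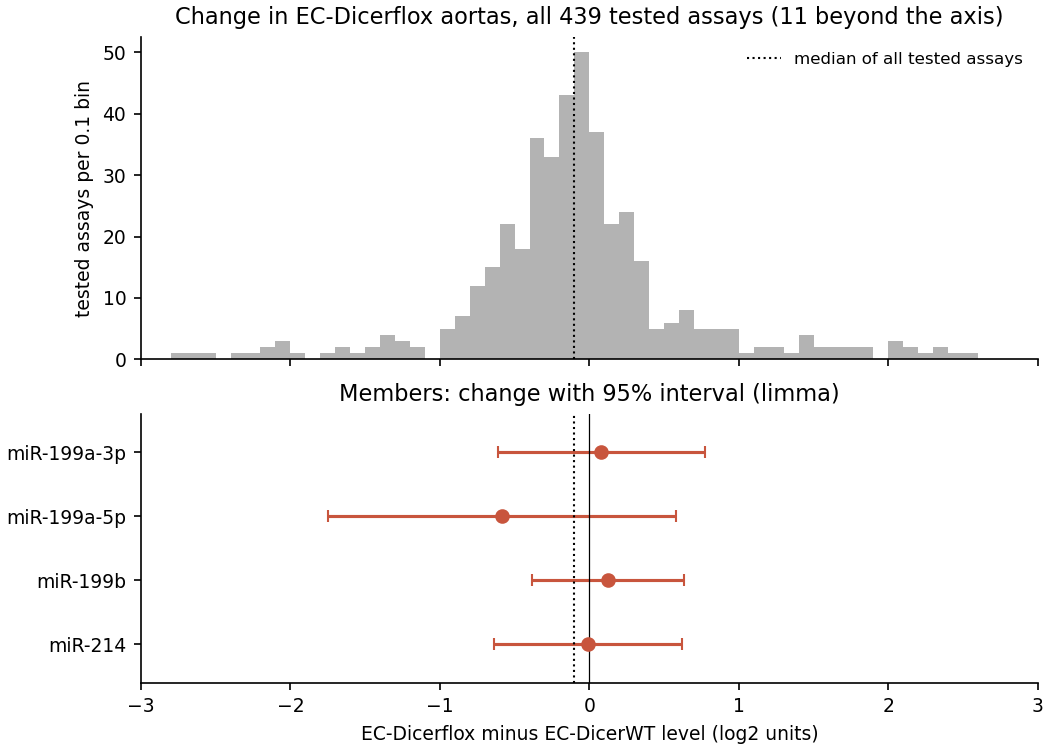
Change between groups (EC-Dicerflox minus EC-DicerWT level, log2 units): above, the number of tested assays per bin; below, each member with its 95% interval from limma. The intervals of the 4 members include 0, and the point of miR-199a-5p lies lowest at -0.58.

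The arms of miR-199a can be compared within a sample without a reference RNA, since both assays were on card A. The Ct of miR-199a-5p exceeded that of miR-199a-3p by 4.08, 3.05 and 3.83 cycles in EC-Dicerflox and by 3.41, 1.95 and 3.61 cycles in EC-DicerWT replicates 1 to 3. The 3p arm thus had the lower Ct in every aorta, and the gap was smallest in EC-DicerWT replicate 2. The efficiencies of both assays were not measured, and the 3p assay also reads the product of Mir199b. The gap was 2.99 ± 0.90 cycles in EC-DicerWT mice, against 3.65 ± 0.54 cycles in EC-Dicerflox mice (both SD, n = 3). The difference between groups was 0.66 cycles (P = 0.4, exact permutation test) and fell to 0.14 without EC-DicerWT replicate 2. This test has 20 assignments of samples to groups and cannot give a P below 0.1.

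MiR-199a-3p and miR-214 were compared in the same way, since Mir199a-2 and Mir214 are cut from the same transcript. The Ct of miR-214 exceeded that of miR-199a-3p by 0.56, 0.51 and 1.49 cycles in EC-Dicerflox and by 0.47, 0.70 and 1.12 cycles in EC-DicerWT replicates 1 to 3. The third replicates of both groups had the widest gaps. The mean gap was 0.76 ± 0.33 cycles in EC-DicerWT mice, against 0.85 ± 0.55 cycles in EC-Dicerflox mice (both SD, n = 3), a difference of 0.09 cycles (P = 0.8, exact permutation test). Its sign was not fixed, with -0.048 in replicates 1 and 2 alone and -0.23 without EC-Dicerflox replicate 3.

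In the third replicates the 2 products moved apart. The mean level of miR-199a-3p was 0.46 log2 units above, and that of miR-214 was 0.29 log2 units below, the mean of the other 4 samples. The median shift over the 394 assays detected in all samples was 0.11. For miR-214, EC-Dicerflox replicate 3 lay below the other 4 at -0.93, while EC-DicerWT replicate 3 lay within their range at -0.73. In raw cycles miR-214 was 0.97 later and miR-199a-3p 0.22 later, while the reference Ct was 0.68 later. The control RNAs did not shift together, with a shift of -0.21 cycles for U6, 0.57 for snoRNA135, 0.61 for snoRNA202 and 0.93 for Y1, and the widest for U87. Each group has 1 such sample. Without the third replicates, the change of miR-214 between groups was 0.085.

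The hairpins Mir199b and Mir214 lie on different chromosomes. Which arm the miR-199b assay reads was not checked. The 3p arm of Mir199b has the sequence of miR-199a-3p and is also made from Mir199a-2, on the chromosome of Mir214. The mean Ct was 19.6 for the miR-199a-3p assay and 25.1 for the miR-199b assay. RefSeq lists no 5p arm for Mir199b, but the 5′ side of its hairpin holds the seed of miR-199a-5p. The assays of miR-199b and miR-214 were on different cards. Their difference had the smallest SD of the 6 pairs of members in both groups, and pairs of other assays were not compared. The Ct of miR-214 minus that of miR-199b was -4.82, -4.56 and -4.49 cycles in EC-Dicerflox and -4.87, -4.74 and -4.67 cycles in EC-DicerWT replicates 1 to 3. MiR-214 had the lower Ct in every aorta. The means were -4.62 and -4.76 cycles with SDs of 0.17 and 0.11 (n = 3 each), and the difference between groups was 0.14 (P = 0.3, exact permutation test). With the control mean of each card subtracted, this difference was 0.16 (P = 0.7, exact permutation test). Over the 6 pairs of members the differences between groups ranged from -0.71 for miR-199a-5p relative to miR-199b to 0.66 for miR-199a-3p relative to miR-199a-5p. The exact permutation P values lay between 0.3 and 0.9, and after Benjamini-Hochberg adjustment over the 6 pairs between 0.75 and 0.9.

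**Figure D3:**
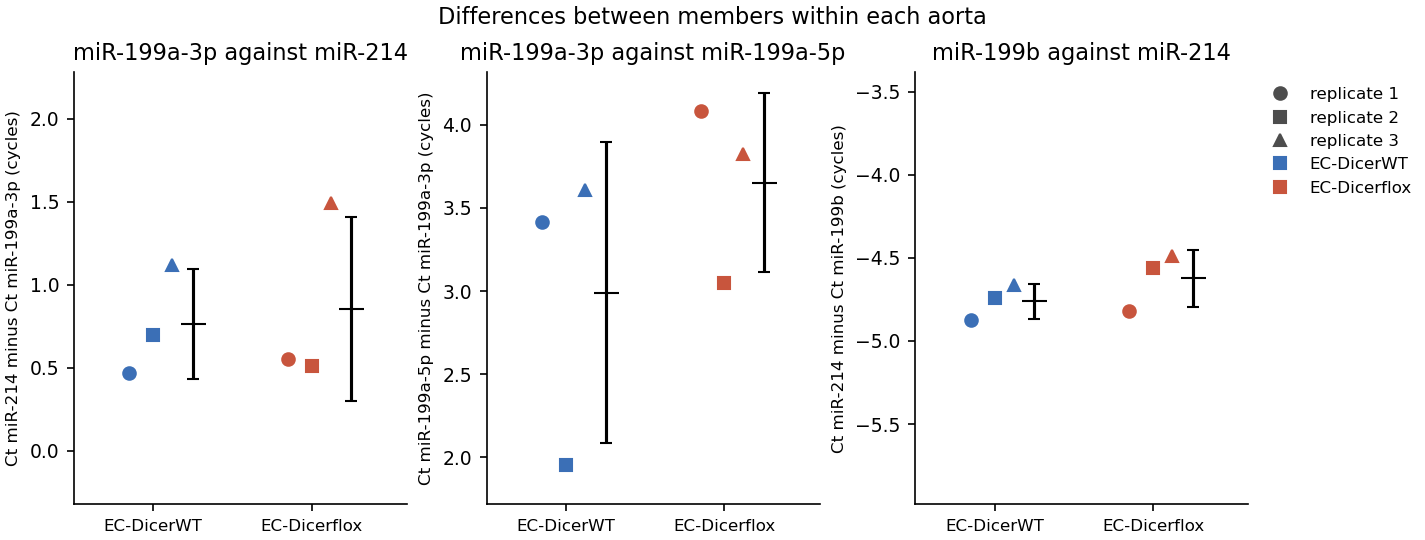
Difference in Ct (cycles) between members in each aorta, with the mean and SD of 3 mice beside the points; colours and shapes as for the levels, and miR-199b is on another card than miR-214. The third replicates (triangles) have the widest gaps between miR-199a-3p and miR-214, at 1.49 and 1.12 cycles, and EC-DicerWT replicate 2 has the narrowest gap between the arms of miR-199a, at 1.95 cycles.

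The correlations between the members' levels across the 6 samples had both signs. Pearson's r ranged from -0.73 (miR-199a-5p and miR-199b) to 0.74 (miR-199b and miR-214) over the 6 pairs. For miR-199b and miR-214, r was 0.74 (exact permutation P = 0.11, adjusted 0.33) and Spearman's rho 0.77 (exact permutation P = 0.10, adjusted 0.56). It was 0.93 in the 4 samples left without the farthest 2, and 0.68 without the third replicates. For miR-199a-3p and miR-214, r was -0.47 (exact permutation P = 0.34, adjusted 0.50) and rho -0.31 (exact permutation P = 0.56, adjusted 0.56). It changed sign to 0.85 in the 4 samples without the third replicates, which were also the farthest 2, so it rested on those samples. All levels of a sample share its reference Ct, and the smallest adjusted P over the pairs was 0.33.

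The assays whose level was most like the mean level of the 4 members were sought among 306 others that were detected in all samples with a mean Ct under 30. Pearson's r over the 6 samples was 0.97 for miR-128a, 0.97 for miR-34a, 0.94 for miR-20a, 0.93 for miR-155 and 0.93 for miR-200a, with a median of 0.05 over the 306. The mean of the members follows miR-199a-5p (r = 0.97), and its r with miR-199a-3p, miR-214 and miR-199b was -0.35, -0.41 and -0.77. MiR-34a is a known target of p53, miR-20a is known from proliferating cells, and miR-155 is known from activated immune cells. The 5 assays were picked by likeness to this mean, and their r with each single member was not computed. Nor was an r without EC-DicerWT replicate 2, the sample in which miR-199a-5p stood apart. In EC-DicerWT replicate 2 the 5 assays stood between 0.53 (miR-20a) and 2.05 (miR-200a) log2 units above the mean of the other samples. This sample was the highest of the 6 for 51 of the 394 assays detected in all samples (12.9%), and the median shift of its levels was 0.03.

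MiR-200a marks epithelium, and the epithelial miRNAs were also high in EC-DicerWT replicate 2. All 6 epithelial miRNAs (miR-200a, miR-200b, miR-200c, miR-141, miR-429 and miR-205) were tested, and EC-DicerWT replicate 2 was the highest sample for 6 of them. Their mean level was -5.42 in that sample, between -7.42 and -7.38 in the other EC-DicerWT samples and between -8.29 and -7.11 in EC-Dicerflox aortas. Mean Ct values of the list ran from 25.7 to 30.2, and 0 of its miRNAs were undetected in the 6 samples. The lowest epithelial mean, -8.29, was that of EC-Dicerflox replicate 2, where the level of miR-199a-5p was -3.16. The lowest miR-199a-5p level, -3.90, was that of EC-Dicerflox replicate 1, where the epithelial mean was -7.46. A correlation of miR-199a-5p with the epithelial mean was not computed. Between groups 5 of the 6 were lower in EC-Dicerflox aortas, as were 61.7% of all tested assays. Their median change was -1.02, and 0 had an unadjusted limma P under 0.05. The part of such tissue in the level of miR-199a-5p was not tested. EC-DicerWT replicate 2 was also the highest sample for 3 of the 6 leukocyte miRNAs. The mean level of the 6 leukocyte miRNAs was -2.13 in EC-DicerWT replicate 2, -2.72 and -2.59 in the other EC-DicerWT samples and between -2.89 and -2.40 in EC-Dicerflox aortas.

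Other lists give the setting of the aortic wall. Of all 439 tested assays, 61.7% were lower in EC-Dicerflox aortas, and the counts below are to be read beside that share. Of the 11 tested assays of mesenchymal and smooth muscle miRNAs, 7 were lower and 4 higher in EC-Dicerflox aortas, with a median change of -0.02 and a range from -0.30 for miR-29b to 1.19 for miR-10a. MiR-10a was the member of this list furthest from 0 (change 1.19 ± 0.81 (SE), adjusted limma P of 0.99). Its groups did not overlap, which held for 9.79% of all tested assays. MiR-10b was counted on both cards, and miR-100 was not tested. The smooth muscle miRNAs miR-143 and miR-145 changed by -0.10 ± 0.23 (SE) and 0.21 ± 0.31 (SE), with adjusted limma P values of 0.99. Of the 4 endothelial miRNAs, 3 were lower, with a median change of -0.27. The changes were -0.42 for miR-222, -0.40 for miR-221, -0.13 for miR-126-3p and 0.25 for miR-126-5p. The mean level of these 4 was between -1.02 and -0.70 in EC-Dicerflox and between -0.69 and -0.59 in EC-DicerWT aortas. The nearest values of the groups were -0.697 (EC-Dicerflox replicate 2) and -0.686 (EC-DicerWT replicate 2). The mean level of the 11 mesenchymal and smooth muscle assays was between -0.33 and 0.06 in EC-Dicerflox and between -0.31 and -0.15 in EC-DicerWT aortas. In both lists 0 assays had an unadjusted limma P under 0.05, against the 4.78% of all tested assays, whose median change was -0.10. Of the 6 leukocyte miRNAs 5 were lower (median change -0.19), and the 2 erythrocyte miRNAs, miR-451 and miR-486, were higher by 0.05 and 0.02, with 0 under that threshold in either list. Of the 4 tested striated muscle miRNAs, 1 was under it, the cardiac miR-208 at -1.65 ± 0.53 (SE), with an adjusted limma P of 0.98.

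A search for other assays with a member's seed covered the 176 of 596 miRNA assays whose exact name is a RefSeq mature name. Assays named in another way were not compared by seed. The single other assay found was miR-761, which has the same seed as miR-214. It was measured on card B at Ct 30.96 and 32.97 in EC-Dicerflox replicates 1 and 3 and at Ct 30.72 and 32.14 in EC-DicerWT replicates 2 and 3, and it was not detected in EC-Dicerflox replicate 2 or EC-DicerWT replicate 1. With 1 undetected sample in each group no fold is given. In every aorta where it was detected, its Ct was above that of miR-214.

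The sign of the small changes depended on the reference. With U6 alone the 4 members were lower in EC-Dicerflox aortas, from -0.96 for miR-199a-5p to -0.25 for miR-199b, and the median of all tested assays was -0.48. With U87 alone this median was 0.08 and 3 of the 4 members were higher, with 0.26 for miR-199a-3p, 0.31 for miR-199b and 0.17 for miR-214. Relative to the median of all tested assays, the change was 0.18 for miR-199a-3p, 0.23 for miR-199b, 0.09 for miR-214 and -0.48 for miR-199a-5p, and these values do not depend on which control RNAs are used when both cards share a reference. MiR-199a-5p was lower under each of the 9 references.

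**Figure D4:**
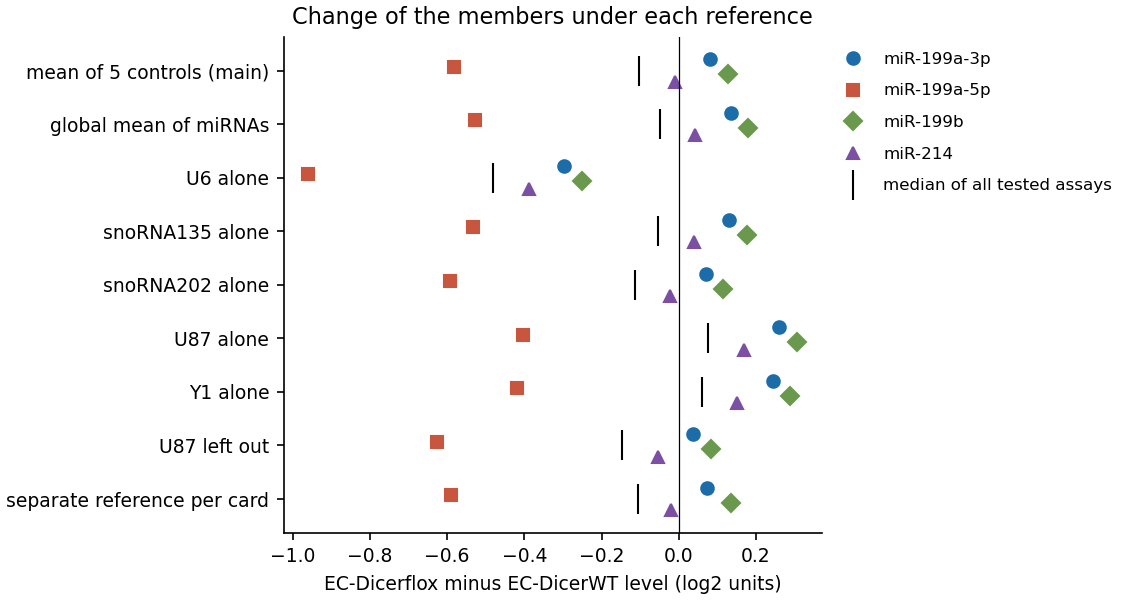
Change of each member (log2 units) under 9 references, with the median of all tested assays as a black bar. Where both cards share a reference, the members shift by an equal amount from row to row by construction, so their order there is fixed. The points of miR-199a-5p lie below the others, from -0.96 to -0.40.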

How the data were processed

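Total RNA of whole aortas (mirVana kit) was measured on TaqMan low-density miRNA array cards A and B. The authors deposited raw Ct values, with no reference subtracted, for 608 assays in 6 samples, and no column of another sample was present (0). Ct 40 was taken as not detected. Levels were the mean Ct of the control RNAs minus the assay's Ct. The 439 assays detected in at least 3 samples were fitted together with limma 3.58.1 (lmFit, eBayes) in R 4.3.3 with group as the single term. Adjusted P values are Benjamini-Hochberg values over the whole set of tested assays. Single values and differences between members were compared by two-sided exact permutation tests over samples. The scripts were tested on simulated data. Depth does not apply to Ct values, and 3 mice per group limit the precision.

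Named were the 4 members, the controls, assays sharing a member's seed, and the 5 assays with the highest r to the members' mean level. The members and marker lists were chosen with earlier results of these data known. Alternatives were other references, detection limits, tests, a replicate block and leaving out samples. A comparison of miR-214 with miR-214* was planned and not made, since no assay of that name was analysed here.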

Additional observations from a re-analysis of the deposited data

How the results depend on the processing

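Under 24 alternatives for each of the 4 members, 0 of 96 fits had an unadjusted limma P under 0.05 (the smallest was 0.15) and adjusted P values ran from 0.83 to 0.999. MiR-199a-5p was lower in EC-Dicerflox aortas in all 24, but several of these cannot move its change. The detection limits, the variance settings, the replicate block and the batch term left it at -0.58, since it was detected in all samples and the groups are balanced. Leaving out EC-DicerWT replicate 2 brought it to -0.16. With U6 alone the change of miR-199a-3p was -0.30 and that of miR-199b -0.25. The change of miR-214 turned to 0.043 with the global mean, 0.038 with snoRNA135, 0.17 with U87, 0.15 with Y1 and 0.085 in replicates 1 and 2 alone. The references snoRNA202, U87 and Y1 alone, and the alternatives for pairs other than miR-199a-3p and miR-214, were chosen after seeing the data.

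Leaving out each replicate in turn gave changes from -0.094 to 0.24 for miR-199a-3p, from -0.83 to -0.16 for miR-199a-5p, from 0.074 to 0.21 for miR-199b and from -0.14 to 0.13 for miR-214. The sign of miR-199a-3p turned when EC-Dicerflox replicate 3 was left out and when EC-DicerWT replicate 2 was, and that of miR-214 when EC-Dicerflox replicate 3 was left out and when EC-DicerWT replicate 1 was. For miR-199a-3p relative to miR-214 the range was -0.23 to 0.27, with -0.14 from medians and -0.048 in replicates 1 and 2 alone. For miR-199a-3p relative to miR-199b it was -0.30 to 0.16, and the sign turned without EC-Dicerflox replicate 1, EC-Dicerflox replicate 2 or EC-DicerWT replicate 3. The cause of these turns was not tested. Over all assays, 21 had an unadjusted limma P under 0.05 and the alternatives gave 6 to 28; adjusted, they gave 0 or 1.

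A replicate block cannot move the changes, since both groups hold the same replicate numbers. With it they stayed at 0.08, -0.58, 0.13 and -0.01 for miR-199a-3p, miR-199a-5p, miR-199b and miR-214, with 0 calls. Between samples with the same number, deviations from the group means had an r of 0.24, 0.030 and 0.39 for replicates 1 to 3 over 394 assays. The labels do not name the numbers as pairs, and the main fit had no replicate block. Whether samples with the same number share a batch was not tested. The planned comparison of miR-214 with miR-214* was not run.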
